A study of Macaca mulatta with 17 samples.

Results

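The cytosolic ribosomal protein genes encode the protein subunits of the ribosome that translates nuclear-encoded messages. A probe was taken as a member where the array's annotation gave it a symbol of RPL or RPS followed by a number, with an optional A, X or L, or one of the stalk protein symbols, and mitochondrial ribosomal proteins, kinases and Y-linked genes stayed out. This gave 59 of the 20217 probes and 54 genes, 37 of the large and 17 of the small subunit, each read from its brightest probe. RPLP0, RPL5, RPL39 and RPS27 were matched by no such probe and were not analysed here.

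The samples were uteri of female rhesus macaque fetuses, 1 array per fetus, 17 arrays in all. Dams ate a daily fruit treat with 400 µg/kg deuterated bisphenol A (BPA) or with its ethanol vehicle. GD100 controls (n = 5) and GD100 BPA fetuses (n = 5, exposed from day 50) were delivered by caesarean section on gestational day 100. GD165 controls (n = 4) and GD165 BPA fetuses (n = 3, exposed from day 100) were born vaginally on days 165 to 168, so age and mode of delivery cannot be told apart. One side of each uterus, cut lengthwise, was frozen for RNA, and stillborn fetuses were left out. Levels below are log2 processed signals scaled to the 75th percentile of each array, which lies at 12.62, and fold changes are differences of these levels. Changes were tested with limma over all probes with a two-sided threshold of an adjusted p of 0.01.

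Ribosomal proteins are made in equimolar amounts, and their messages carry a terminal oligopyrimidine tract at the 5′ end through which mTOR signaling, with LARP1, sets their translation together. Most of these genes are transcribed in every cell. A few have paralogs of restricted expression, among them RPL10L and RPL39L, known from testis, RPL3L, known from heart and skeletal muscle, and RPS27L, a target of p53. In bulk tissue, fewer cells of a type and less RNA per cell cannot be told apart.

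The probes are 60-mers. The stretches below are shown because the results turn on these probes: first the whole RPL10L probe and the first 30 bases of the RPL39L and RPS27L probes (the paralogs with the smallest p between ages), of the RPL10 probe and of the RPL13 probe (the member that varied most between fetuses), then 30 bases of the steadiest members and of RPLP2 and RPS6. Capitals mark AATAAA, the poly(A) signal.
RPL10L: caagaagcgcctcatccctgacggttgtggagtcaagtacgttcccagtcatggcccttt
RPL39L: gagtcgcacttgagatggcacacatattta
RPS27L: acactaatgattcaaacagcttcctgaatt
RPL10: tagtggcttaaccaccctccttgtagctat
RPL13: gtttggtcagtggctgatgtaaaatggttt
RPL11: atccaaaagaccAATAAAaagttttcagtg
RPS7: caaaagtgactaAATAAAatatatattcac
RPL18: acgggccagccgaggctacaaaaactaacc
RPLP2: attcctgctcccctgcaAATAAAgcctttt
RPS6: attttttgagtaacaAATAAAtaagatcag

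AATAAA stood on the sense strand of 23 of the 54 member probes (42.6%), against 12.8% of all probes. The match is a description of the probes and says nothing of where a message ends. On the opposite strand (TTTATT) it was in 0 of the 54 member probes and in 4.67% of all probes. The annotation gave several transcript accessions to 38 of the 42 bright members defined below, which include predicted copies, so their signals can hold RNA of near-identical copies such as processed pseudogenes. RPL7 is uncertain. Its brightest probe and the next one were designed to expressed sequence tags that the annotation also ties to another reference transcript each, and the probe designed to the RPL7 reference transcript had a mean signal of 397 against 124422 for the brightest.

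The members fell into a bright and a dimmer set, with no member between 5458 and 38911 in mean processed signal. The 42 bright members (27 of the large and 15 of the small subunit) were well above background on every array, and their median signal was 329503, in the 99.7th percentile of all probes. The 12 dimmer members were RPL10, RPL10L, RPL28, RPL3L, RPL30, RPL32, RPL34, RPL36A, RPL37, RPL39L, RPS23 and RPS27L. Their signals ran from 12.3 for RPL37 to 5458 for RPS27L, and 11 of these 12 probes carried a single accession. The signal of a dim probe was not taken as a measure of how abundant a message is. The RPL7 probes may read different genes, so they cannot show how far probes of the same gene differ. RPL37 was well above background on 8 arrays, RPS23 on 7 and RPL32 on 16, and the others on all 17.

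The bright members were steady. Their median SD over the 17 arrays was 0.12 on the log2 scale, against 0.30 over all probes and 0.16 over the 1464 probes with a mean signal of at least 30000. Those 1464 probes had a lower median signal, 52249. Within groups the median SD was 0.12 for the bright members and 0.13 for those probes. An SD under 0.2 was seen for 39 of the 42 (92.9%) and for 65.4% of those 1464 probes. The exceptions were RPL14 with 0.21, RPL9 with 0.32 and RPL13 with 1.21. RPL18 (SD 0.07), a large subunit protein, ranged from 18.08 to 18.35. RPL11 (SD 0.07), which joins the 5S ribonucleoprotein and binds MDM2, ranged from 18.11 to 18.36, and RPS7 (SD 0.07) from 16.46 to 16.74. RPS18 was saturated on all 17 arrays, so its level is a bound and no fold change is given. RPS4X was saturated on 15 and RPL41 on 1.

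**Figure D1:**
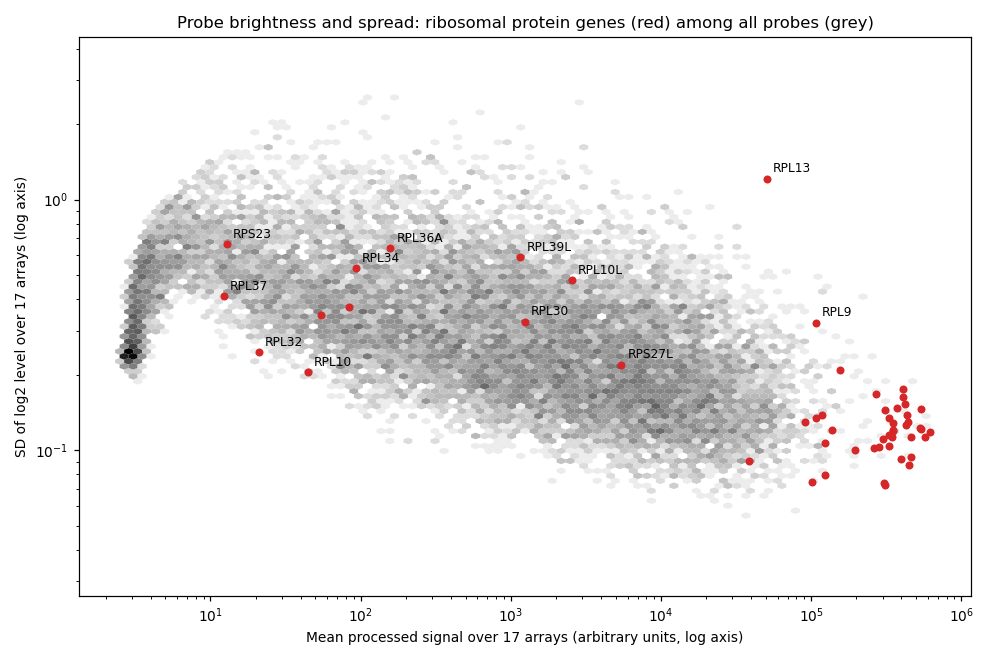
Mean processed signal of each probe (x axis, log scale) against the SD of its log2 level over 17 arrays (y axis, log scale), with the 54 member genes as red points and the density of all 20217 probes in grey. The 42 bright members lie at the right with a median SD of 0.12, RPL13 stands far above them at 1.21, and the dimmer members lie within the grey cloud.

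Between GD100 and GD165 controls 2 paralogs passed the threshold and none of the bright members did. RPL10L fell and RPS27L rose, which makes 2 of 54 members called (3.7%) where 11.5% of all probes passed. By direction, 1 member was higher (background 6.32%) and 1 lower (background 5.2%), and 0 of the 42 bright members passed. The median log2 fold change of the 54 members was -0.03, against 0.00 over all probes. A log2 fold change below 0 was found for 33 of the 54 (61.1%, background 49.5%). At an unadjusted p of 0.05, 5 members passed (background 33.1%).

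RPL10L, an intronless paralog of RPL10, had levels of 11.55, 11.85, 11.63, 12.04 and 11.42 in the GD100 controls. In the GD165 controls it was at 10.41, 11.07, 11.24 and 10.73. Every older control lay below every younger one. The 4 older controls averaged 10.86 ± 0.37 (SD) and the 5 younger ones 11.70 ± 0.25 (SD). RPL10L was thus 1.79-fold lower at the later age, by -0.84 ± 0.18 (SE) on the log2 scale (limma adjusted p = 0.00323). The call was lost with the compared groups only (adjusted p = 0.0197), with the replicate number as a block (0.0373) and without GD165 control replicate 1 (0.0122) or 6 (0.0131). The RPL10L probe had a mean signal of 2545, against 44.7 for the RPL10 probe. Whether the RPL10L probe also reads RNA of RPL10 or its copies was not tested.

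Among BPA fetuses RPL10L showed the same order. It was at 11.52, 11.06, 11.44, 11.53 and 11.60 in GD100 BPA and at 10.49, 10.65 and 10.93 in GD165 BPA, without overlap. The log2 fold change was -0.74 ± 0.19 (SE), with an adjusted p of 0.0133 in limma, which missed the threshold.

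RPS27L, a p53-inducible paralog of RPS27, was at 12.18, 12.33, 12.24, 12.25 and 12.30 in GD100 controls and at 12.53, 12.52, 12.53 and 12.85 in GD165 controls. The groups did not overlap. It was 1.27-fold higher at GD165, a log2 fold change of 0.35 ± 0.09 (SE, limma adjusted p = 0.00974). This call stood close to the threshold, and it was lost in 16 of the 17 fits that left out 1 array and in the fit with slide as a fixed term (adjusted p = 0.0438). In GD100 BPA fetuses RPS27L was at 12.17, 12.05, 12.10, 12.33 and 12.34, and in GD165 BPA at 12.58, 12.55 and 12.69. It was 1.33-fold higher there (log2 fold change 0.41 ± 0.09 SE, limma adjusted p = 0.00754), again with no overlap. RPS27L was the 1 member of 54 called between the BPA groups (1.85%, background 9.68%, or 4.82% higher and 4.86% lower). That call too was lost in 9 of the 17 fits without 1 array, with slide as a fixed term (adjusted p = 0.0425) and with the replicate number as a block (0.0166).

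RPL39L, an autosomal paralog of the X-linked RPL39, had levels of 10.78, 10.09, 9.81, 10.50 and 10.29 in GD100 controls and of 9.17, 9.47, 9.81 and 9.44 in GD165 controls. The highest older control reached the lowest younger one. Its log2 fold change of -0.82 ± 0.24 (SE, limma adjusted p = 0.021) missed the threshold. In the BPA groups it was at 11.25, 10.37, 10.66, 10.53 and 10.30 at GD100 and at 9.22, 9.49 and 10.12 at GD165, which did not overlap. That difference of -1.01 ± 0.26 (SE), or 2.01-fold, had an adjusted p of 0.0123 in limma.

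The parent genes RPL10 and RPL3 did not pass the threshold. RPL10, X-linked, was read from a probe with a mean signal of 44.7, and its log2 fold change was 0.34 ± 0.11 (SE) between the controls (limma adjusted p = 0.0414) and 0.08 ± 0.12 between the BPA groups. RPL3, which lines the peptidyl transferase center, ranged from 18.28 to 18.89 over all fetuses. Its log2 fold change between the controls was -0.04 (95% interval -0.30 to 0.22). RPL3L, its striated muscle paralog, was read from a dim probe with a mean signal of 54.8. It lay between 5.30 and 6.33 in every fetus, and its log2 fold change was 0.14 (95% interval -0.37 to 0.65). Over the same arrays the mean level of 9 skeletal muscle markers ran from 7.09 to 7.81 in GD100 controls and from 9.26 to 13.46 in GD165 controls. In GD100 BPA it ran from 7.25 to 9.62 and in GD165 BPA from 8.57 to 12.92. Of the 9, 4 passed between the controls in either direction (background 11.5%), and 7 were well above background on all arrays. Their relation to RPL3L was not tested.

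**Figure D2:**
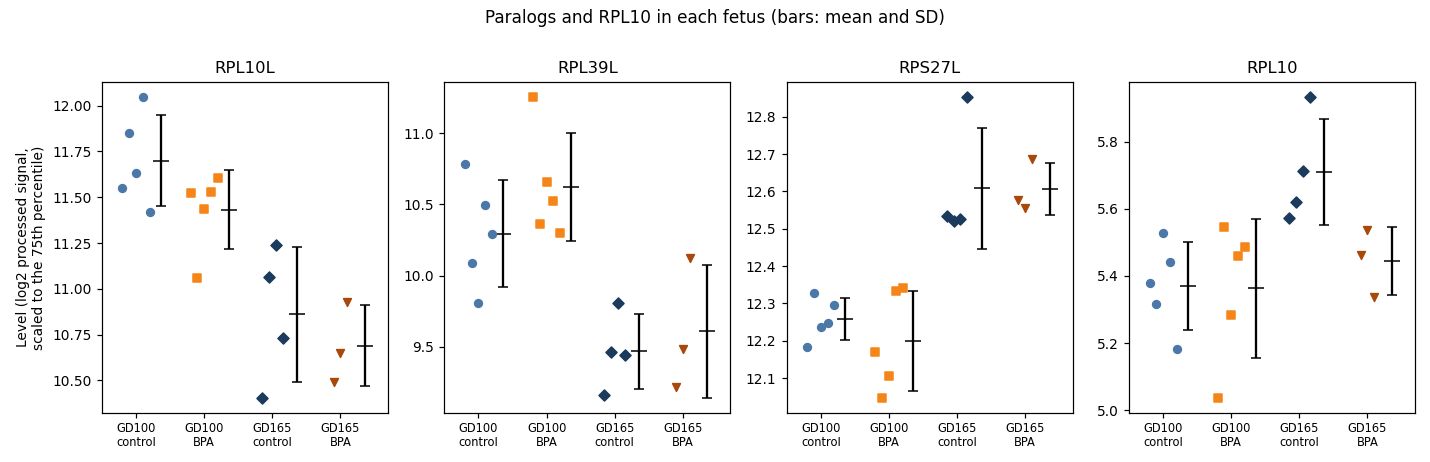
Level (y axis, log2 processed signal scaled to the 75th percentile) of RPL10L, RPL39L, RPS27L and RPL10 in each fetus by group, with the mean and SD as bars beside the points. Within the controls and within the BPA fetuses, RPL10L lies lower and RPS27L higher at GD165 than at GD100. RPL39L lies lower at GD165 among the BPA fetuses, and its controls meet at 9.81.

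Slide and age were partly crossed, so the paralogs could be compared on a shared slide. With 1 GD165 and 1 GD100 control on each of slides 3 and 5, the RPL10L difference was -0.57 and -1.01, that of RPL39L -0.34 and -1.13, and that of RPS27L 0.28 and 0.24. On slide 2, with 1 fetus of each BPA group, the difference was -0.67 for RPL10L, -0.18 for RPL39L and 0.35 for RPS27L. Each gene had the same sign on all 3 slides. For RPL10L and RPS27L, and for RPL39L on slide 2, that sign was fixed beforehand, since the groups did not overlap. These differences use the same levels as the fits, so they are no separate check, and slide was not tested as a cause.

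Cell cycle genes and some markers of other cell types differed with age too. Of 28 cell cycle genes matched, 27 passed the threshold as lower in GD165 controls (background 5.2%), and 25 passed as lower in GD165 BPA (background 4.86%). The mean level of 6 smooth muscle markers ran from 14.67 to 15.32 in GD100 controls and from 15.31 to 15.88 in GD165 controls, and that of 9 leukocyte markers from 8.46 to 9.16 and from 9.58 to 9.98. Of these markers, 3 of the 6 and 2 of the 9 passed the threshold between the controls, in either direction (background 11.5%). PTPRC was well above background on all arrays, CD163 on none. Their part in the levels of RPL10L, RPL39L and RPS27L was not tested. All 7 Müllerian duct and uterus markers, HOXA10, HOXA11 and ESR1 among them, were well above background on all 17 arrays. They were not constant with age. Between the controls 4 of the 7 passed the threshold (background 11.5%), and between the BPA groups 3 passed (background 9.68%).

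The 40 bright members other than RPL13 and RPL9 include RPS18, saturated on all 17 arrays, and RPS4X, saturated on 15. A saturated reading is a bound and can hide a change, and both genes are also in the later counts of intervals. From GD100 to GD165 in controls the log2 fold changes of the 40 members lay between -0.18 (RPL24) and 0.11 (RPS3A). Their 95% intervals lay between -0.36 and 0.35. An interval wholly inside a 1.5-fold change in either direction was found for 44 of 54 members (81.5%), RPS18 and RPS4X counted among them, and for 47.3% of all probes. Among the bright members it was 40 of 42, and RPL13 and RPL9 were the others. Interval width follows a probe's spread, and the share among probes of like brightness was not taken. The median SD within groups was 0.12 for the bright members, 0.13 for probes of at least 30000 and 0.25 for all probes.

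The acidic stalk proteins RPLP1 and RPLP2, which recruit elongation factors, had log2 fold changes of -0.02 (95% interval -0.27 to 0.22) and -0.02 (-0.24 to 0.19). RPL11 was at -0.03 (-0.18 to 0.12). RPS19, mutated in Diamond-Blackfan anemia, was at 0.00 (-0.20 to 0.21). RPS6, the target of the S6 kinases, was at 0.08 (-0.10 to 0.26). The X-linked RPS4X, on its second and unsaturated probe, was at 0.06 ± 0.09 (SE). For RPS6 the GD165 BPA fetuses, at 16.83, 16.79 and 17.02, all lay above the GD100 BPA fetuses, at 16.55, 16.64, 16.62, 16.74 and 16.62. The log2 fold change of 0.24 ± 0.09 (SE) had an adjusted p of 0.0739 in limma. Between the BPA groups a log2 fold change below 0 was found for 40 of 54 members (74.1%, background 55.3%). The median there was -0.08 for members and -0.05 for all probes, and without scaling these became 0.10 and 0.13. The interval between the BPA groups was inside a 1.5-fold change for 41 members (75.9%, background 41.1%), 40 of them bright. Groups without overlap were seen for 5 of 54 members between the controls (background 19.4%) and for 4 between the BPA groups (background 27.2%).

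No member, and no other probe of the array, passed the threshold in limma between BPA and control at either age. The authors' error-weighted analysis of variance, which was not repeated here, did report differences at both ages, fewer of them at GD100. At GD100, 0 of 54 members passed at an adjusted p of 0.01 in limma (background 0%), and 0 passed at an unadjusted p of 0.05 (background 3.79%). The 40 bright members other than RPL13 and RPL9 lay between -0.13 (RPL8) and 0.08 (RPS3A), and their 95% intervals between -0.39 and 0.36. The interval was inside a 1.5-fold change for 46 members (background 65.9%). A log2 fold change below 0 was found for 23 of 54 (background 46.7%), and 0 members had groups without overlap (background 0.782%). The smallest p values belonged to RPL34, RPL10L and RPL39L. RPL34 had a log2 fold change of -0.50 ± 0.30 (SE), RPL10L of -0.27 ± 0.17 and RPL39L of 0.33 ± 0.22.

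At GD165, 0 of 54 members passed in limma (background 0%) and 2 passed at an unadjusted p of 0.05, RPS23 and RPL28 (background 8.61%). Of the 54, 37 had a log2 fold change below 0 (68.5%, background 55.3%), with a median of -0.06 for members and -0.02 for all probes. This direction depended on the scaling, since without scaling both medians were above 0, at 0.10 for members and 0.13 for all probes. The 40 bright members other than RPL13 and RPL9 lay between -0.17 (RPL14) and 0.15 (RPS6), with intervals from -0.52 to 0.38. The interval was inside a 1.5-fold change for 44 members (background 52.4%). RPL28, on a probe with a mean signal of 83.8, had levels of 5.80, 5.50 and 6.28 in the BPA fetuses and at 6.17, 6.70, 6.15 and 6.55 in controls, which overlapped (log2 fold change -0.53 ± 0.23 SE, limma adjusted p = 0.557). RPL10 was at 5.46, 5.54 and 5.34 in BPA and at 5.57, 5.62, 5.71 and 5.93 in controls. It was the 1 member without overlap (background 7.31%), with a log2 fold change of -0.26 ± 0.13 (SE, limma adjusted p = 0.586).

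A difference between the BPA effects at the 2 ages passed an adjusted p of 0.01 in limma for 0 of 54 members (background 0%). It was below 0 for 39 of them (background 55.7%), and its interval lay inside a 1.5-fold change for 39 (72.2%, background 36.9%). Its direction too depended on the scaling. The median of -0.06 for members and -0.04 for all probes became 0.14 and 0.16 without scaling, and 0.05 and 0.02 after quantile normalization. At an unadjusted p of 0.05, 2 members passed, RPS23 and RPL13 (background 7.83%). The difference was 1.36 ± 0.57 (SE) for RPS23 and 2.30 ± 1.08 for RPL13, with adjusted p of 0.594 and 0.635. That of RPL36A was -0.96 ± 0.52 (adjusted p = 0.694).

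**Figure D3:**
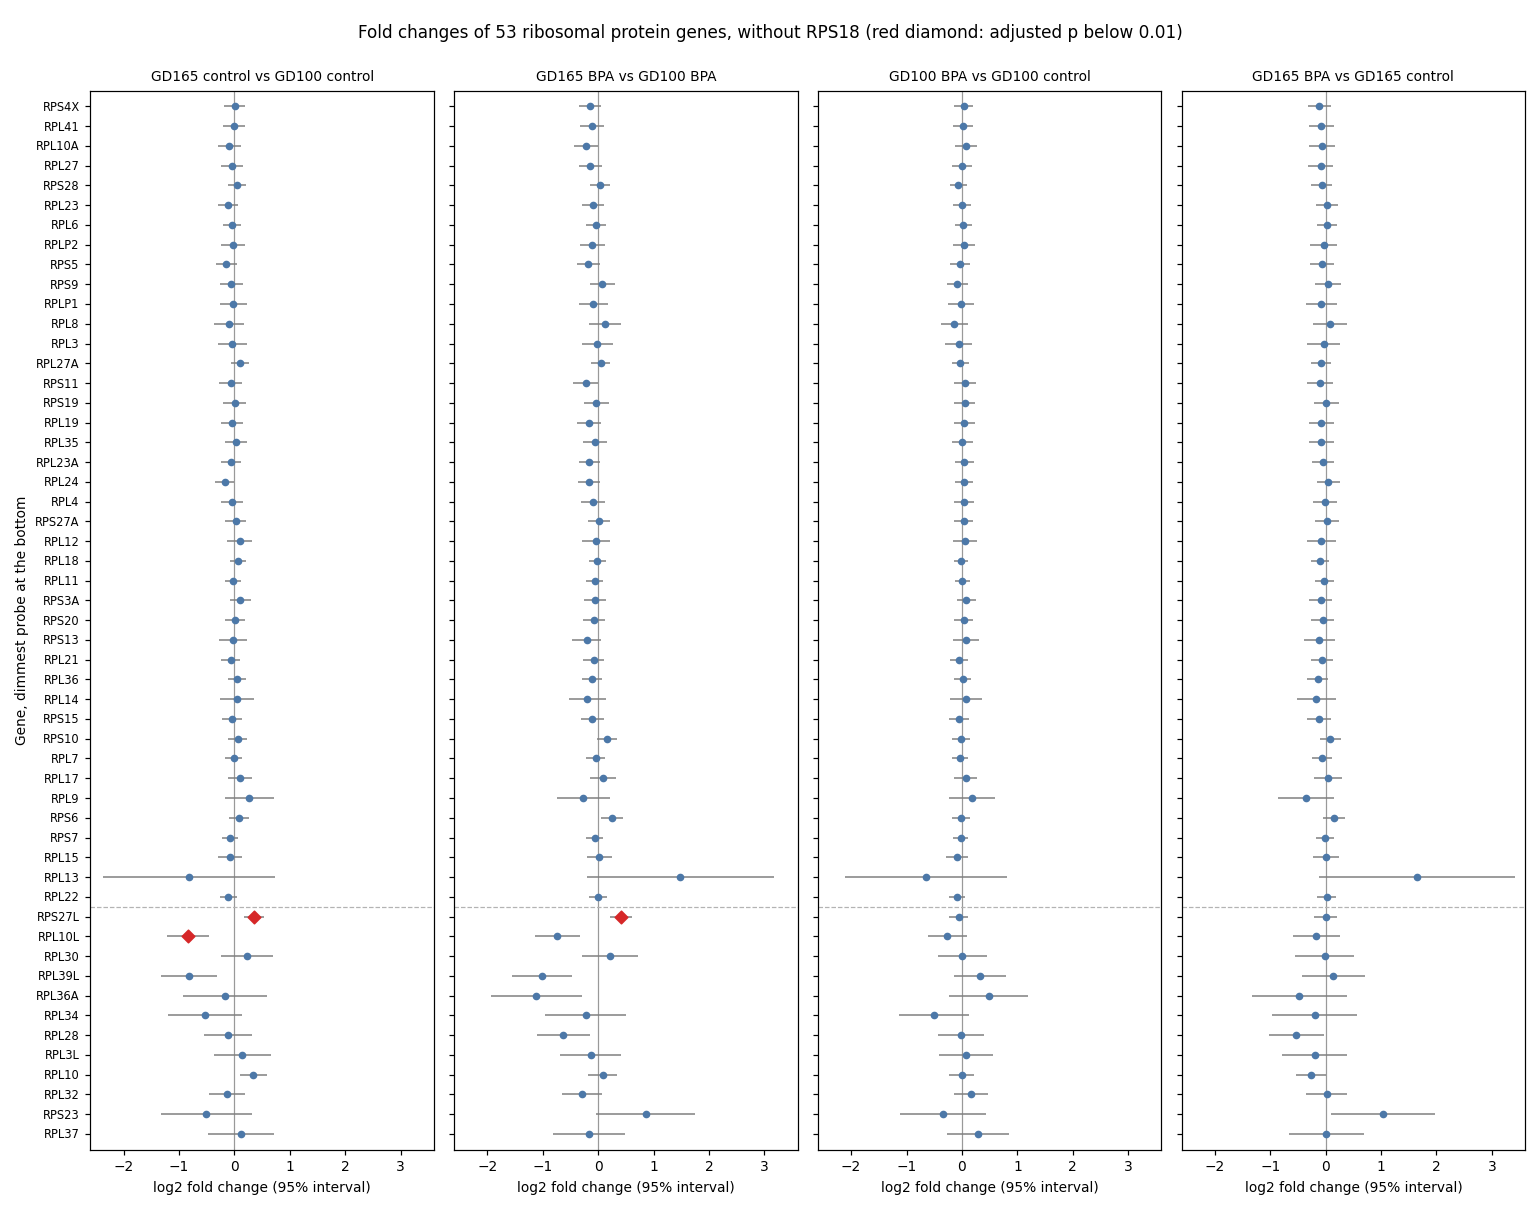
Log2 fold change (x axis, points) with its 95% interval (lines) of the member genes in 4 comparisons, ordered by mean processed signal with the dimmest probe at the bottom and without RPS18, which was saturated. The dashed line divides the bright members above from the 12 dimmer ones. The bright members drawn other than RPL13 and RPL9 lie near 0 in all 4 panels, and the red diamonds mark the calls, RPL10L and RPS27L between the controls and RPS27L between the BPA groups.

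RPL13 varied far more than any other bright member. In GD100 controls its level was 15.70, 15.73, 14.89, 14.98 and 15.74, and in GD100 BPA 16.74, 14.88, 15.47, 14.74 and 11.97. In GD165 controls it was at 14.56, 14.80, 14.49 and 14.51, and in GD165 BPA at 17.02, 14.48 and 17.22. From the lowest fetus to the highest the signal changed 38.1-fold. Its 2 spots differed by at most 0.16 on the log2 scale on any array, against a range of 5.25 between fetuses. Both extremes were BPA fetuses, at opposite ends. GD165 BPA replicates 3 and 5 stood above all other fetuses, and replicate 4 lay with the controls. The log2 fold change at GD165 was 1.65 (95% interval -0.12 to 3.42, limma adjusted p = 0.598). On the array with the lowest RPL13, the median of the 42 bright members was 0.01 from their own means.

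The spread of RPS23 rested on 1 spot. It was at 5.68 in GD165 BPA replicate 3 and between 2.70 and 3.87 in the other 16 fetuses, and on that array its 2 spots differed by 4.41 on the log2 scale. RPL36A, which is X-linked, had levels of 8.60 and 8.46 in GD100 BPA replicates 3 and 4 and between 6.24 and 7.80 elsewhere, and its spots differed by at most 0.16. Between the BPA groups its log2 fold change was -1.12 ± 0.39 (SE, limma adjusted p = 0.0512). RPL9 ranged from 16.02 in GD100 BPA replicate 1 to 17.21 in GD165 control replicate 6, with spots within 0.07 of each other.

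**Figure D4:**
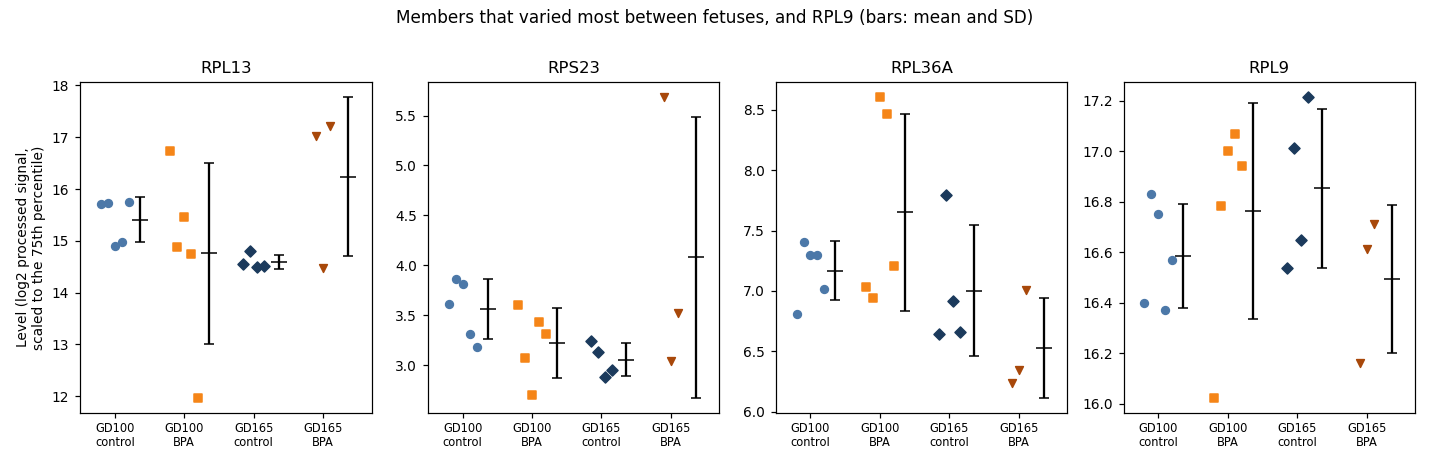
Level (y axis, log2 processed signal scaled to the 75th percentile) of RPL13, RPS23, RPL36A and RPL9 in each fetus by group, with the mean and SD as bars beside the points. RPL13 reaches 17.22 and falls to 11.97 among BPA fetuses, and RPS23 has 1 fetus at 5.68.

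The bright members moved together by small amounts from array to array. The median Pearson's r over the 861 pairs of bright members was 0.50 across 17 arrays, against 0.06 for all pairs of probes with a mean signal of at least 30000. After group means were removed it was 0.59. These are descriptions, since the points share arrays, scaling and slides. With the median of the other bright members, 34 of 42 correlated at above 0.5, RPL11 (0.96) and RPLP2 (0.96) most closely. RPS6 (0.02), RPL13 (0.03) and RPS10 (0.11) were least alike. Among the dimmer members the median pairwise r was -0.08.

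The joint level, the median deviation of the bright members from their own means, ran from -0.13 to 0.16 over the 17 arrays. It was -0.07 to 0.15 in GD100 controls, -0.06 to 0.16 in GD100 BPA, -0.13 to 0.09 in GD165 controls and -0.13 to 0.08 in GD165 BPA, so all groups overlapped. By slide it was -0.13 to -0.05 on the 4 arrays of slide 5, which held 2 of the 3 GD165 BPA fetuses, and 0.05 to 0.09 on the 3 arrays of slide 3. On slide 5 the median difference of the bright members between GD165 BPA and control was -0.05, as was that of all probes. Slide was not tested as the cause.

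**Figure D5:**
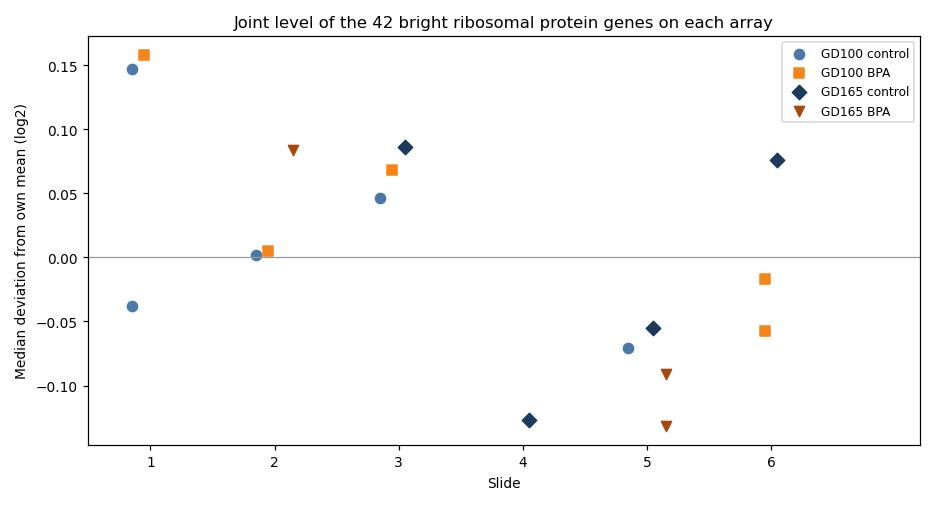
Joint level of the 42 bright members on each array, as the median log2 deviation from each gene's own mean (y axis), by slide (x axis) with groups by color and marker. The 4 arrays of slide 5 and the array of slide 4 lie below 0, the 3 arrays of slide 3 lie above it, and the groups overlap.

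Genes that work beside the ribosomal proteins were matched from lists, whose counts between the controls stand against 11.5% of all probes called and 49.5% below 0. Of 21 translation factors matched of 40, 0 passed in limma in any of the 5 comparisons, and their median log2 fold change between the controls was 0.02. Of 28 ribosome biogenesis genes matched of 52, 1 passed and 26 had a log2 fold change below 0 between the controls, with a median of -0.21. The 1 was GNL3, the nucleolar GTPase nucleostemin, at -0.45 ± 0.11 (SE, limma adjusted p = 0.00732). Of 71 mitochondrial ribosomal proteins 1 passed, MRPL42, at -0.50 ± 0.09 (SE, limma adjusted p = 0.00142), and of 16 aminoacyl-tRNA synthetases 1 passed, IARS, at -0.43 ± 0.10 (SE, limma adjusted p = 0.00522). Their medians between the controls were -0.09 and -0.17.

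Among 20 genes that control ribosome production, 2 passed between the controls, both lower at GD165, a share near the 11.5% of all probes. MYC, which drives ribosome biogenesis, was at -0.71 ± 0.17 (SE, limma adjusted p = 0.00815), and DDIT4, an inhibitor of mTOR signaling, at -0.76 ± 0.12 (adjusted p = 0.000486). Between the BPA groups 1 of the 20 passed as lower (background 4.86%) and 1 as higher (background 4.82%), and MYC did not pass. DDIT4 was the lower one, at -0.99 ± 0.13 (SE, limma adjusted p = 0.000212). RICTOR, a part of mTOR complex 2, was the higher one, at 0.59 ± 0.13 (SE, limma adjusted p = 0.00645). None of these lists had a gene past the threshold between BPA and control at either age in limma (0 genes).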

How the data were processed

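RNA of individual fetal uteri was hybridized to single-color rhesus macaque arrays on 6 slides. The authors extracted the spots with Agilent Feature Extraction 9.5 (named also in the submitters' processing notes) at its 1-color defaults, and the deposited processed signals are linear intensities, background-subtracted and not scaled between arrays. Bright spots were read from a scan at lower gain and scaled up by that software, which was so on all 17 arrays for 41 members. The members and gene lists were chosen with earlier results of these data known.

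Control spots and spots marked as outliers were left out, the log2 signals of the 2 spots of each probe were averaged, and each array's 75th percentile was subtracted. On each array 83.8 to 89.0% of spots were well above background, and the number of arrays limits the precision. limma 3.58.1 in R 4.3.3 was fitted to 17 arrays in 4 groups, with Benjamini-Hochberg adjustment over 20217 probes and 95% intervals from its moderated t. Each array is 1 animal, taken as a replicate by the labels. Named genes were members past the threshold, otherwise the 3 smallest p in a comparison, members of textbook interest, the 3 highest and 3 lowest SDs, saturated members, and list genes past the threshold. RPL7, RPL8, RPL9, RPL14, RPL24, RPS3A, RPS10, RPL26L1, RPL36AL and the limit of 30000 between bright and dimmer members were chosen after their values were seen. Probe coordinates were not used, as no build is named beside them. The fit was tested on simulated data. The authors' error-weighted analysis of variance was not repeated. The alternatives were other scalings (medians, quantile, none), normexp background correction, weights from the scanner software's error estimates, a filter on dim probes, outlier spots kept, saturated probes left out, the compared groups only, a trended robust prior, slide (fixed or random) or replicate number as a block, other probes of a gene, another threshold, and leaving out each array. The counts over a list of further ribosomal proteins are not reported here.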

Additional observations from a re-analysis of the deposited data

Results flagged for a closer look

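Among 66 groups of 4 or 5 fetuses examined for the 21 named genes and the joint level, 2 held a fetus far from the rest, where chance gives about 1 in 20. RPS27L in GD165 control replicate 6 was at 12.85, with the nearest of the other 3 controls at 12.53. RPS7 in GD165 control replicate 5 was at 16.46, with the nearest at 16.61. Over all 54 members 6 of 162 groups held such a fetus. No member's BPA effects differed between the ages past the threshold (0 members, limma).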

How the results depend on the processing

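In the 3 comparisons of BPA effects, 0 members passed in every alternative, fits without 1 array included. Between the controls 2 members passed. The count was 1 (RPL10L) with arrays scaled to their medians, without scaling and with slide as a fixed term, 0 with the compared groups only, 0 among bright members alone, 4 at an adjusted p of 0.05 and 0 to 2 without 1 array. It was 0 without GD165 control replicate 1 or 6, where RPL10L had an adjusted p of 0.0122 and 0.0131. Between the BPA groups 1 member passed. The count was 0 without scaling, with the compared groups only, with slide as a fixed term and among bright members alone, 2 with normexp background correction and with a trended robust prior, 3 at an adjusted p of 0.05 and 0 to 2 without 1 array. RPL10L stayed lower in every alternative, with log2 fold changes of -0.96 to -0.69 in fits without 1 array and -0.89 to -0.78 in others. RPS27L stayed higher between the controls, at 0.27 to 0.38 and at 0.27 to 0.36.

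With the replicate number as a block, 0 members passed between the BPA groups and 0 between the controls. RPL10L was at -0.78 between the controls in that fit (adjusted p = 0.0373). The labels do not say that a number marks shared animals, and r between same-numbered fetuses was -0.17 to 0.16 over 19 pairs.

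The member median between the controls became 0.076 with slide as a fixed term. Without scaling it became 0.10 at GD165 for BPA against control, 0.10 between the BPA groups and 0.14 for the difference of BPA effects, the last at 0.050 after quantile normalization. The cause was not tested. Among the 102 values of named genes not past the threshold, 3165 of 3244 alternatives moved by less than the spread within groups, 69 moved more and 10 passed, of RPL39L, RPL10L and RPL10. Some of these 10 passed only because the threshold was relaxed to an adjusted p of 0.05, and RPL10 passed in no other way. Of the alternatives, reading RPL7, RPL17, RPS3A and RPS4X from other probes and leaving out the dimmer members were added after seeing the data. Dim probes and saturation limit RPL37, RPS23, RPL32, RPS18 and RPS4X.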

Other observations

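RPL26L1, a paralog of RPL26 whose symbol lies outside the rule for members, had a log2 fold change of -0.37 ± 0.11 (SE) between the controls (limma adjusted p = 0.0209) and of -0.22 ± 0.12 between the BPA groups (adjusted p = 0.194). RPL36AL, the autosomal paralog of RPL36A, was at 0.29 ± 0.13 between the controls (limma adjusted p = 0.133) and at -0.01 ± 0.14 between the BPA groups. Neither passed the threshold in any of the 5 comparisons.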
